A study of Mus musculus with 10 samples.

Results

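Macrophages are phagocytes that live in every tissue, skeletal muscle included, where they clear debris and take part in repair. Their transcripts were followed here in whole gastrocnemius, a calf muscle, of mice lacking Skn-1 and of wild-type mice. The set holds 10 genes chosen by name: Cd68, Csf1r, Cd14, Cd163, Mrc1, C1qa, C1qb, C1qc, Tyrobp and Fcer1g. They were read from 14 probe sets that the array annotation gives to 1 gene each, out of 34945 such probe sets and 18193 genes on the array. Skn-1, or Pou2f3, is a transcription factor of the POU family that taste and tuft cells need. The knockouts were Skn-1/Pou2f3-deficient; the deleted stretch is not described in the labels. Both genotypes were male, 12 to 16 weeks old, of a 129 and C57BL/6J background that had been crossed to C57BL/6J for over 10 generations. All were fed chow and then fasted for 18 h, so that no fed muscle was measured. There were 5 arrays a genotype, called biological replicates in the labels, and the comparison asks how fasted muscle without Skn-1 differs from wild type. Nothing else is said of how the replicates were taken, so p-values measure the spread between these arrays.

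Macrophages depend on Csf1r, the receptor for colony-stimulating factor 1 and interleukin 34. They bind and engulf particles through surface receptors such as Cd163, which takes up haemoglobin bound to haptoglobin, Mrc1, the mannose receptor, and Cd14, which presents bacterial lipopolysaccharide to toll-like receptors. Tyrobp and Fcer1g are membrane adaptors that carry signals from other surface receptors to the kinase Syk. C1qa, C1qb and C1qc encode the 3 chains of C1q, which starts the classical complement pathway and which macrophages themselves make.

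Deposited values are used on a scale taken as log2; the log base is not stated, so folds rest on that reading. Of all 45037 probe sets, 13.8% (6209) had an SD above 0.01 over the 10 arrays and are called ordinary. The others hardly varied (median SD 0.000189), and their differences are not folds in RNA. Of the 14 macrophage probe sets 13 were ordinary, the exception being the dimmest of 3 for Csf1r. Array medians lay between 6.23 and 6.24, and 5 ordinary markers of skeletal muscle had a mean level of 12.96 to 13.07 in every array. The single Pou2f3 probe set read 6.47 in all arrays and hardly varied, so it does not check the labels. Knockout 5 and wild type 3 stood apart from the rest, because they carried transcripts of lymphocytes, and results are given with and without them.

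The complement gene C1qb had the widest range of the 10 genes over all 10 arrays, and both genotypes shared it. Over the 8 arrays without lymphocyte genes Cd163 had the largest SD (0.344, against 0.318 for C1qb). The brightest probe set of C1qb read 7.78, 8.20, 8.49, 8.25 and 8.69 in knockouts 1 to 5. In wild types 1 to 5 it read 7.61, 8.09, 8.92, 8.01 and 8.53. The highest array was thus 2.47 times the lowest, and the arrays of both genotypes were spread over the same range. C1qa, on the same chromosome 4 cluster, read 7.97, 8.43, 8.73, 8.37 and 8.94 in knockouts and 7.97, 8.43, 9.16, 8.36 and 8.75 in wild types. C1qc, whose gene lies between those of C1qb and C1qa, read 7.49, 7.74, 7.96, 7.78 and 8.22 in knockouts and 7.45, 7.64, 8.66, 7.60 and 8.13 in wild types. Replicate 1 of each genotype was the lowest of its group for all 3 chains. Wild type 3 was the highest array and knockout 5 the second highest for each of them.

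The C1q chains stayed closely related when the 2 arrays with lymphocyte genes were set aside, and C1qb and C1qc put the arrays in the same order. Over the other 8 arrays C1qb and C1qc had a Spearman rho of 1 (exact permutation p = 4.96e-05, the smallest the permutations can give, adjusted p = 0.00223 over 45 pairs of genes) and a Pearson r of 0.956 (exact permutation p = 0.000347, adjusted p = 0.00474). Without the 2 arrays farthest from the median of C1qb, r was 0.991. Here and below, the 2 farthest arrays of a pair were chosen by 1 of its genes only. That gene is the one named first in the opening list, so an extreme array of the other gene can remain. C1qa and C1qb had r = 0.964 and rho = 0.881 (exact permutation p = 0.00129 and 0.00724, adjusted p = 0.00703 and 0.0136), and r = 0.914 without the 2 farthest arrays. The other 2 probe sets of C1qb, whose probes may also match related sequences as their names mark, followed the brightest with r = 0.933 and 0.912 over 8 arrays. All 3 had wild type 3 and knockout 5 highest and wild type 1 and knockout 1 lowest, while knockout 4 ranked 5 by the brightest and 8 and 7 by the others.

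Promoters of 6 of the 10 genes were in the RefSeq table of GRCm38.p6, and 5 are shown. C1qb, C1qc, Fcer1g and Mrc1 were closely correlated and all highest in wild type 3 and knockout 5, the arrays with lymphocyte genes. Cd163 was not highest there. Cd68, the window not shown, was also highest in those 2 arrays. C1qb lies at chr4:136880126-136886200, C1qc at chr4:136889801-136892936 and C1qa at chr4:136895916-136898844. Each sequence is the stretch of the 250 bases before the listed start that lies outside the annotated gene, 5′ to 3′ on the gene's strand. Capitals mark matches on either strand to AGGAAG, the core that PU.1 and other ETS factors bind; PU.1 is the factor that macrophage development needs.
C1qb, chr4:136886201-136886450, minus strand: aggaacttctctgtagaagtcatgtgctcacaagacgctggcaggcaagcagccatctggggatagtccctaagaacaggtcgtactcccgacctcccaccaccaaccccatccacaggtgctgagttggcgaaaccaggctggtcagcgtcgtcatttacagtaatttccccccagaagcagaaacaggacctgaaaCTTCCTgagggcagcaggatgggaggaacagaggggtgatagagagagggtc
C1qc, chr4:136892937-136893164, minus strand: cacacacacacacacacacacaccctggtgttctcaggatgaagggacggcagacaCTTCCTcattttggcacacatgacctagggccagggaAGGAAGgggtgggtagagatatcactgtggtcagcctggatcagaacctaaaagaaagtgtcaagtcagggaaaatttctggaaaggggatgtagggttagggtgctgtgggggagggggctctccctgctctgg
Fcer1g, chr1:171234350-171234599, minus strand: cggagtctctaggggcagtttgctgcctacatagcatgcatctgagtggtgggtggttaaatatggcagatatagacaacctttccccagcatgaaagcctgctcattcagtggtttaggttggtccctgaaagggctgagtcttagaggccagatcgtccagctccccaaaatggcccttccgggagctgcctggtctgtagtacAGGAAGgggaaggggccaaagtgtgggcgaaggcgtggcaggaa
Mrc1, chr2:14229164-14229413, plus strand: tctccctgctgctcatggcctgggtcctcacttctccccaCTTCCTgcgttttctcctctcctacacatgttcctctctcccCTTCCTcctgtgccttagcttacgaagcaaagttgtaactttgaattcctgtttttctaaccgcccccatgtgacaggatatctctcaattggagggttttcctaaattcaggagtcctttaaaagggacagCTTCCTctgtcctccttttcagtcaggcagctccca
Cd163, chr6:124304401-124304635, plus strand: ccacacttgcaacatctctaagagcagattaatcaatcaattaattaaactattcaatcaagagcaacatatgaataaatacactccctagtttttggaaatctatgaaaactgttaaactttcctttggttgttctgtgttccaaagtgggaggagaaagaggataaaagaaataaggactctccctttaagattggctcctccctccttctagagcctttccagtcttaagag
The motif was found in 4 of the 6 windows, as against 29.5% of 32851 windows of 250 bases in the table. C1qb and Fcer1g held 1 match each, C1qc held 2 and Mrc1 held 3. Cd163, shown in lower case throughout, and Cd68 held none. Cd68 thus shared the array pattern of the 4 genes without the motif, and a link between motif and pattern was not tested. Cd68 alone of the 6 had matches to TGANTCA, the AP-1 motif (6.75% of all windows), and to TTGCNNAA, a form of the C/EBP site (9.56% of all windows). A match describes letters in the window and is not a shown binding site.

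Both signalling adaptors followed the C1q chains. Tyrobp read 7.50, 7.69, 8.04, 7.90 and 8.39 in knockouts 1 to 5 and 7.55, 7.81, 8.71, 7.62 and 8.13 in wild types 1 to 5. Fcer1g read 7.36, 7.53, 7.67, 7.52 and 7.82 in knockouts and 7.24, 7.43, 8.15, 7.30 and 7.78 in wild types. Wild type 3 was again highest and knockout 5 second for both. Over the 8 arrays without lymphocyte genes Fcer1g and C1qc had r = 0.972 and rho = 0.952 (exact permutation p = 0.000248 and 0.00114, adjusted p = 0.00474 and 0.00467), and r = 0.901 without the 2 farthest arrays. Tyrobp and Fcer1g had r = 0.914 and rho = 0.857 (exact permutation p = 0.00201 and 0.0107, adjusted p = 0.0075 and 0.0179), and r = 0.725 without the 2 farthest arrays.

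Csf1r, Cd68 and Mrc1 were also highest in wild type 3 and second highest in knockout 5. Csf1r read 9.60, 9.77, 9.77, 9.92 and 10.08 in knockouts and 9.28, 9.66, 10.31, 9.61 and 10.00 in wild types. Its second probe set followed the first with r = 0.910 over 8 arrays. Cd68, a glycoprotein of late endosomes and lysosomes, read 6.37, 6.48, 7.02, 6.62 and 7.02 in knockouts and 6.405, 6.73, 7.25, 6.44 and 6.88 in wild types. Its levels were not far from the array medians, and no detection calls were used to tell them from background. Mrc1 read 7.57, 7.75, 8.02, 7.82 and 8.09 in knockouts and 7.51, 7.71, 8.27, 7.64 and 7.87 in wild types. Mrc1 and C1qb had r = 0.954 and rho = 0.976 over the 8 arrays (exact permutation p = 0.000422 and 0.000397, adjusted p = 0.00474 and 0.00357), and r = 0.972 without the 2 farthest. Cd68 and Csf1r had r = 0.609 and rho = 0.810 (exact permutation p = 0.109 and 0.0218, adjusted p = 0.123 and 0.0288), and r = 0.528 without the 2 farthest. Csf1r and C1qb had r = 0.891 and rho = 0.976 (exact permutation p = 0.00255 and 0.000397, adjusted p = 0.0075 and 0.00357), and r = 0.708 without the 2 farthest. The pair of Cd68 and Csf1r was the lowest by r of the 28 pairs that leave out Cd163 and Cd14.

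Cd163 and Cd14 were the 2 genes not highest in the arrays with lymphocyte genes. Cd163 read 8.32, 8.74, 8.57, 8.52 and 8.49 in knockouts and 7.66, 8.40, 8.65, 8.30 and 8.73 in wild types. Its highest array was knockout 2 and its lowest was wild type 1, by a wide gap to the next. Cd14 read 7.03, 7.31, 7.002, 7.06 and 7.01 in knockouts and 6.76, 6.95, 7.17, 6.86 and 7.26 in wild types, also with its peak in knockout 2. Across the 8 arrays Cd163 and Cd14 had r = 0.867 and rho = 0.881 (exact permutation p = 0.00131 and 0.00724, adjusted p = 0.00703 and 0.0136), and r = 0.842 without the 2 farthest arrays. Cd14 had r between 0.301 and 0.785 with the other 8 genes, and Cd163 between 0.528 and 0.911. By r the highest of these was Csf1r for both, and by rho it was Fcer1g for both (0.929 with Cd163 and 0.762 with Cd14). Without the 2 farthest arrays Cd163 had r = 0.984 with Fcer1g, 0.970 with C1qc, 0.949 with Tyrobp and 0.919 with C1qb, all above its 0.842 with Cd14. Below that lay its r with Mrc1 (0.817), C1qa (0.806), Csf1r (0.671) and Cd68 (0.401).

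Of the 45 pairs among the 10 genes, 36 passed an adjusted p of 0.05 by r and 35 by rho over 8 arrays, with a median r of 0.854. Without the 2 arrays farthest by the first-listed gene of each pair, the median r was 0.806 and the range 0.157 to 0.991. The genes share the arrays, and each genotype alone has 4 such arrays, too few for a correlation within it. As background, the mean deviation of the 10 genes had r above 0.9 over 10 arrays with 1.21% of 5433 other ordinary probe sets with 1 gene (median r 0.123). Over the 8 arrays it was 0.976% (median r 0.195). These are relations to a mean and not to single genes, and the share of other gene pairs passing the same test was not counted. Fewer macrophages in a muscle and less RNA in each cannot be told apart in whole tissue.

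**Figure D1:**
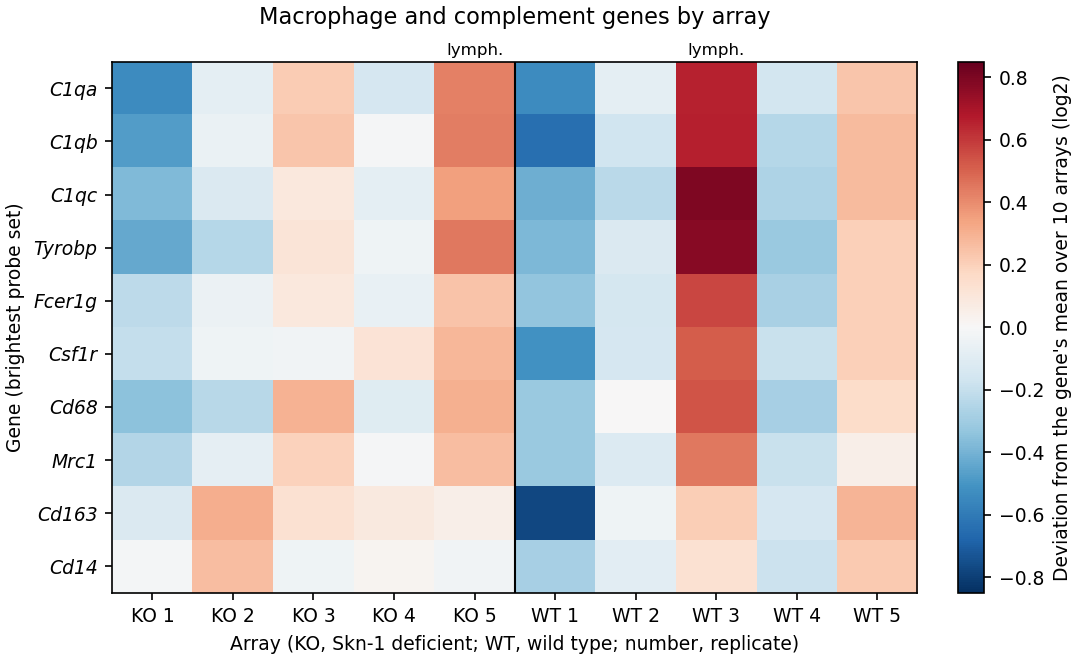
Deviation of each gene's brightest probe set from its own mean over 10 arrays (log2, colour), for 10 genes (rows) and 10 arrays (columns; "lymph." marks the 2 arrays with lymphocyte genes). Wild type 3 is highest for 8 of the 10 genes, wild type 1 is lowest for 7, and Cd163 and Cd14 in the bottom rows peak in knockout 2.

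The 2 arrays that stood apart were marked by B and T cell genes. The mean deviation of 11 ordinary markers, 6 of 12 listed for B cells and 5 of 12 for T cells, was 1.15 in knockout 5 and 1.14 in wild type 3. In the other 8 arrays it lay between −0.34 and −0.23. Ms4a1, the B cell surface protein CD20, read 7.94 in knockout 5 and 7.88 in wild type 3, and 5.56 to 5.74 in the others. The mean level of the B cell markers ranged from 6.02 to 7.94 in knockouts and from 5.95 to 7.84 in wild types, and that of the T cell markers from 5.80 to 6.66 and from 5.75 to 6.77. One array of each genotype was thus high in lymphocyte genes, by about the same amount.

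In those 2 arrays most of the macrophage genes were also high, but by less. C1qb was 1.42 times as high in knockout 5 as in the mean of the other 4 knockouts, and 1.81 times as high in wild type 3 as in the other 4 wild types. The same ratios were 1.48 and 1.73 for C1qa, 1.39 and 1.93 for C1qc, 1.52 and 1.91 for Tyrobp, and 1.23 and 1.64 for Fcer1g. They were 1.25 and 1.597 for Csf1r, 1.32 and 1.56 for Cd68, and 1.23 and 1.505 for Mrc1. Cd163 (0.967 and 1.30) and Cd14 (0.940 and 1.16) were not higher in knockout 5 than in the mean of the other knockouts. In 8 of the 10 genes (80%) these 2 arrays were the top 2, as they were in 12.9% of all 3846 ordinary genes. No test of this excess was run. Markers of other cells were higher there too, in knockout 5 and wild type 3 against the others of their genotype (log2): lymph node stroma by 1.67 and 1.38, the 1 dendritic cell gene by 1.47 and 1.43, adipocyte genes by 0.67 and 1.04 and neutrophil genes by 0.59 and 1.36. Their part in the result was not tested.

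In the remaining muscles no relation to lymphocyte genes passed. The r between the lymphocyte value and a macrophage gene ran from 0.123 for C1qa to 0.620 for Csf1r. That was 0 of 10 relations (Pearson, exact permutation p from 0.0946 to 0.757, adjusted p from 0.459 to 0.757; Spearman adjusted p from 0.360 to 0.752). For Csf1r rho was 0.595, and r was 0.578 without the 2 arrays farthest from the median lymphocyte value. Cd14 had r = 0.593 and the highest rho, 0.762 (exact permutation p = 0.0368, adjusted p = 0.360), and r = 0.622 without the same 2 arrays. The relation was tested over the narrow range of lymphocyte values in these 8 arrays. The SD of the 10 genes over the 8 arrays ran from 0.166 to 0.344 with a median of 0.232, as against 0.311 over all 10 arrays. For all ordinary genes the median SD over the 8 arrays was 0.151.

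**Figure D2:**
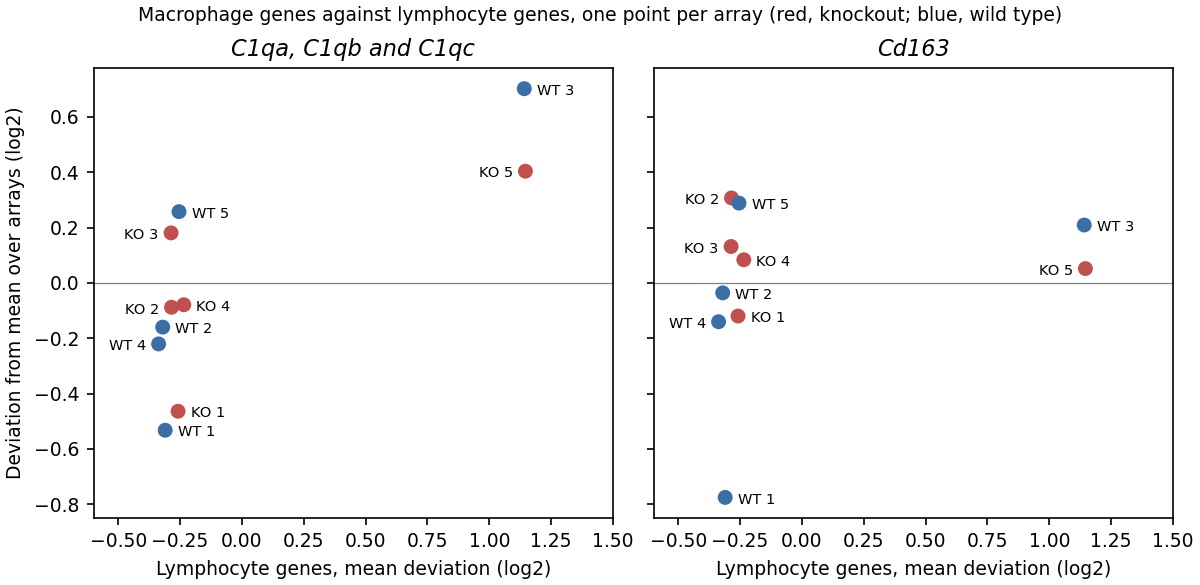
Mean deviation of C1qa, C1qb and C1qc (left) and deviation of Cd163 (right) against the mean deviation of lymphocyte genes (log2), one point per array. Knockout 5 and wild type 3 lie apart to the right at 1.15 and 1.14, with C1q deviations of 0.40 and 0.70, while the other 8 arrays differ in C1q from −0.53 to 0.26 at nearly the same lymphocyte value.

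Other macrophage genes differed in how closely they followed the 10. Of 30 further genes of tissue macrophages 28 were measured and 19 were ordinary. Over those 8 arrays 11 of the 19 had r above 0.8 with the mean of the 10 genes (median 0.815, range −0.046 to 0.993). At the high end were Lyz1 and Lyz2, the lysozymes (0.993 and 0.979), Ctss, the antigen-processing cathepsin S (0.961), and Adgre1, the F4/80 antigen (0.897). Lyz1 and Lyz2 are near-identical neighbours, so that their probe sets may read one another's transcript. The share of all ordinary probe sets with r above 0.8 over these 8 arrays was not counted.

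Marco and Timd4, named after their values were seen, behaved otherwise. Marco, a scavenger receptor known from macrophages of the spleen and lymph nodes, read 6.18, 6.28, 6.18, 6.21 and 8.39 in knockouts 1 to 5 and 6.20, 6.07, 8.27, 6.23 and 6.24 in wild types 1 to 5. Timd4, a receptor for phosphatidylserine on dying cells, read 5.73, 5.66, 5.73, 5.73 and 7.27 in knockouts and 5.62, 5.52, 7.34, 5.39 and 5.63 in wild types. Both were high in the 2 arrays with lymphocyte genes and low in every other array, as Ms4a1 was. Marco exceeded the other arrays of its genotype by 2.17 in knockout 5 and by 2.08 in wild type 3 (log2), and Timd4 by 1.55 and 1.80. Elsewhere both lay near or below the array medians, where a level cannot be told from background. Over the other 8 arrays r with the mean of the 10 genes was 0.174 for Marco and 0.259 for Timd4. Lyve1, which marks a class of resident macrophages and also lymphatic vessels, had the highest r with Cd163 among the tissue macrophage genes (0.935 over 8 arrays), but unlike Cd163 it was higher in knockout 5 (by 0.57) as well as in wild type 3 (by 0.87).

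**Figure D3:**
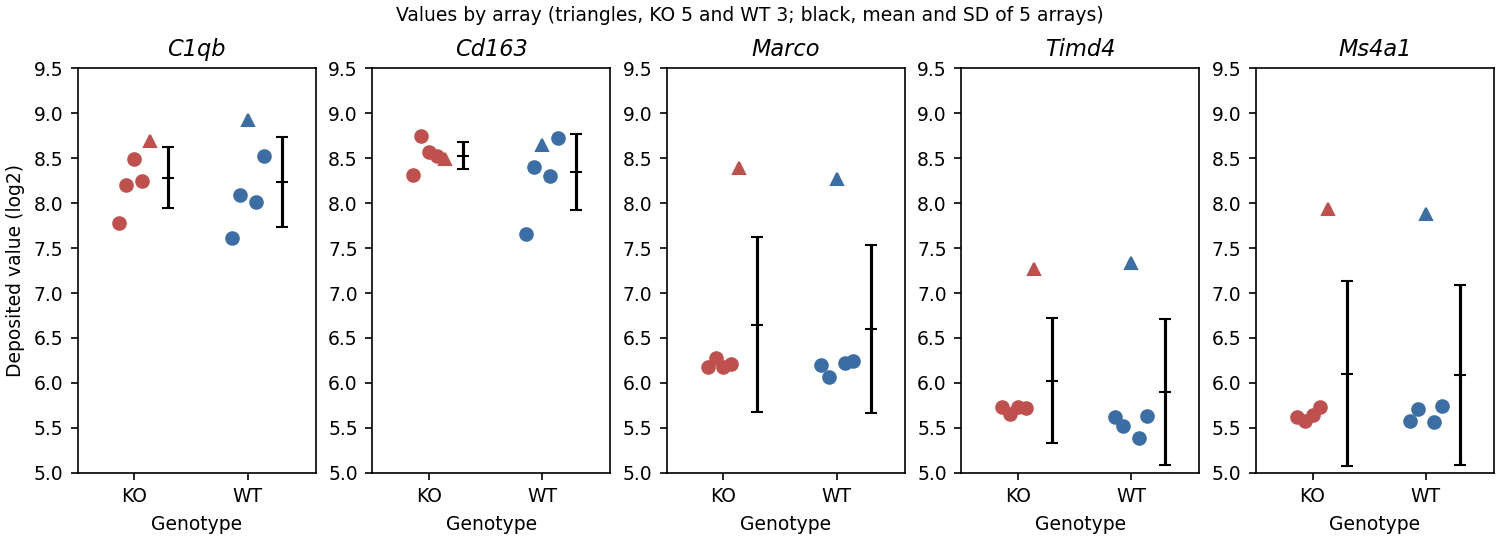
Deposited values (log2) of C1qb, Cd163, Marco, Timd4 and the B cell gene Ms4a1 in 5 knockout (KO) and 5 wild-type (WT) arrays; triangles are knockout 5 and wild type 3, and black bars give the mean and SD of each group. C1qb is spread over both genotypes with the triangles on top, Cd163 peaks in another knockout, and Marco, Timd4 and Ms4a1 are high in the triangles alone.

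No macrophage gene separated the genotypes. With limma 0 of the 14 probe sets passed an adjusted p of 0.05, where 0.191% of all 45037 did (86). An unadjusted p under 0.05 was found in 0 of them, as against 6.62% of all probe sets and 9.92% of ordinary ones. Exact permutation tests also gave 0 of 13 ordinary probe sets with an unadjusted p under 0.05. All 14 overlapped between the groups, and 1.6% of all probe sets did not overlap. By their brightest probe sets 5 of the 10 genes were higher and 5 lower in knockouts, with a median difference of 0.022 on the log2 scale, and of 3846 ordinary genes 1826 were higher, with a median of −0.0047.

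Cd163 had the largest difference of the 10 genes. It stood at 8.53 ± 0.15 (SD, n = 5) in knockouts and 8.35 ± 0.42 (SD, n = 5) in wild types, a ratio of 1.13 (95% interval 0.833 to 1.54; limma unadjusted p = 0.377, adjusted p = 0.965). C1qb stood at 8.28 ± 0.34 and 8.23 ± 0.50, a ratio of 1.04 with an interval of 0.681 to 1.58. For C1qa the ratio was 0.967 (0.649 to 1.44) and for C1qc 0.960 (0.649 to 1.42). Tyrobp had a ratio of 0.958 (0.641 to 1.43), and Fcer1g one of 0.998 (0.748 to 1.33). Csf1r had 1.04 (0.768 to 1.40), Cd68 0.975 (0.71 to 1.34), Mrc1 1.03 (0.806 to 1.32) and Cd14 1.06 (0.891 to 1.25). The widest of these intervals are those of the C1q chains and Tyrobp, and the narrowest is that of Cd14. Leaving out wild type 1 alone took the Cd163 difference from 0.18 to 0.011 on the log2 scale.

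**Figure D4:**
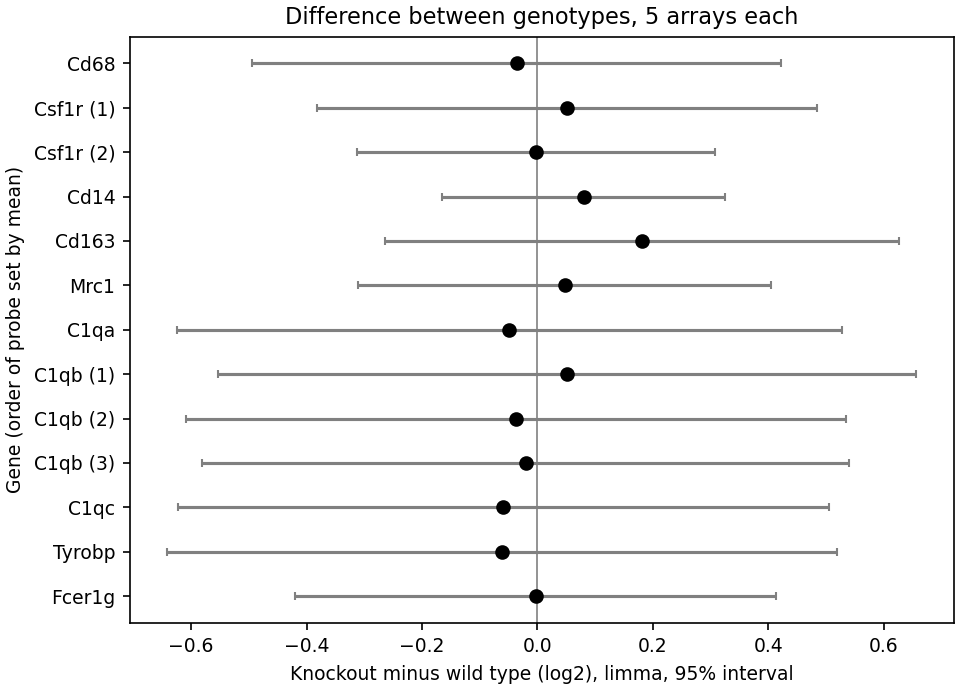
Knockout minus wild type (log2) for the 13 ordinary probe sets, with 95% intervals from limma (5 arrays each; numbers in brackets give the order of a gene's probe sets by mean). Every interval spans 0, the differences lie between −0.061 and 0.18, and the narrowest interval is that of Cd14.

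Setting the arrays with lymphocyte genes aside changed no call. Without knockout 5 and wild type 3 the 13 differences ran from −0.0034 to 0.27 (4 arrays each, smallest limma adjusted p = 0.987). With the lymphocyte value as a covariate they ran from −0.079 to 0.18 (smallest limma adjusted p = 0.940). The sign turned with the choice of arrays for 11 of the 13 probe sets, the exceptions being Cd163 and Cd14. Both were higher in knockouts under each of the 21 alternatives run, and neither passed in any. Some alternatives, such as the filters and the replicate block, cannot change a difference. Those that leave out arrays share most of the rest, so the shared sign is a description only.

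The wider pathways of these genes gave no call either. Of 29 other complement genes 21 were measured and 8 ordinary, 6 of them higher and 2 lower in knockouts, and none passed. Cfb, factor B of the alternative pathway, differed by 0.28 ± 0.24 SE (limma adjusted p = 0.947) and Cd59a, which blocks the terminal complex, by 0.088 ± 0.088 SE (limma adjusted p = 0.961). Of 22 genes listed for the signalling of Tyrobp, Fcer1g and like adaptors 19 were measured and 4 ordinary. A place in the list does not mean that a gene pairs with these 2 adaptors. Fcgr2b and Fcgr3, receptors for the constant part of antibodies, differed by 0.064 and −0.048 and tracked the 10 genes over 8 arrays (r = 0.978 and 0.984). The colony-stimulating factor axis had 4 ordinary genes of 9 measured, all lower in knockouts and none passing, with Csf2rb at −0.11 and Csf2rb2 at −0.084. Toll-like receptors and their partners had 3 ordinary genes of 16 measured, with Nfkbia, an inhibitor of NF-kappa-B, at −0.14 and Tlr4 at −0.025. Among the tissue macrophage genes 14 were higher and 5 lower, none passed, and Lgals3, galectin 3, differed by 0.16 and Lyve1 by 0.19. Macrophage activation genes had 6 ordinary of 17 measured, 5 higher and 1 lower, with Hmox1, the haem-degrading enzyme, at −0.40 ± 0.24 SE (limma adjusted p = 0.892) and Retnla at 0.18. Pan-leukocyte genes, all 10 ordinary, were 3 higher and 7 lower, with Rac2 at −0.15 and Arhgdib at 0.068. In each of these lists 0 genes had an unadjusted limma p under 0.05, as against 9.92% of all ordinary probe sets.

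The genes most like the 10 over all 10 arrays, by r with their mean, were Lyz1 (0.982, at a probe set other than its brightest), Lyz2 (0.979), Fcgr2b (0.968), the lysosomal growth factor Grn (0.966), Iqgap2 (0.963), the hyaluronan receptor Cd44 (0.958), the lectin Clec4a3 (0.955) and Atp1b3, a sodium pump subunit (0.949). For the C1q chains alone Lyz2 (0.979), Iqgap2 (0.976), Lyz1 (0.975), Atp1b3 (0.973) and Ctsh, cathepsin H (0.967), came first. Without the 2 lymphocyte arrays these probe sets had r between 0.883 and 0.984 with the 10 genes or 0.932 and 0.961 with C1q. None of these 9 genes passed between genotypes at the threshold (smallest limma adjusted p = 0.991).

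Markers of other cells were set beside the same arrays, and their part in the result was not tested. The mean of all 5 fibroblast genes had r = 0.811 with the mean of the 10 genes over the 8 arrays without lymphocyte genes, with levels of 9.87 to 10.21 in knockouts and 9.59 to 10.04 in wild types. All 5 were higher in knockouts, 0 passed, and Lum had an unadjusted limma p of 0.0164 (adjusted p = 0.566). Lyve1, the 1 ordinary gene of 5 listed for lymphatic endothelium, had r = 0.80. Endothelial markers (3 ordinary of 6; r = −0.0032), mast cell markers (3 of 8; 0.263), neutrophil markers (2 of 8; −0.0089) and adipocyte markers (4 of 4 measured of 6; 0.343) followed it less. Natural killer and dendritic cell markers, 1 ordinary gene each, had r = −0.078 and −0.030. Schwann cell markers (2 ordinary; 0.401), muscle markers (5; 0.137) and lymph node stroma markers (2; 0.431) were weakly related. Epidermis and hair markers, high in knockout 1 (mean deviation 0.88) and knockout 4 (1.30), had r = −0.254. Pan-leukocyte genes (10 ordinary; r = 0.879) followed the 10 genes over the same 8 arrays, T cell markers (5; 0.581) and B cell markers (6; 0.236) less. No red cell marker was ordinary.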

How the data were processed

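RNA from 10 gastrocnemius samples (Trizol and a column kit, 100 ng labelled with a 3′ IVT kit, per the labels' protocols) was hybridised to Affymetrix mouse whole-genome arrays. The authors deposited values of 4.93 to 13.96, read here as log2 and as already normalized, since array medians hardly differ. The sources used here give neither software nor log base. The values were used as deposited, and 64 array controls of 45101 rows were left out. Platform gene names were updated through gene identifiers (34741 of 34945 single-gene probe sets matched RefSeq, GRCm38.p6). The brightest ordinary probe set stood for a gene in lists and correlations.

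Genotypes were compared with limma 3.58.1 (R 4.3.3; lmFit, eBayes) over 45037 probe sets with Benjamini-Hochberg adjustment. Data were simulated for those 45037 probe sets with independent normal noise, and changes were put into ordinary probe sets drawn at random. Over 5 runs limma recovered 33.8% of probe sets changed by 0.5 and 79.8% of those changed by 1 (log2), with 6.27% false calls. These shares do not hold for the 10 genes, whose median SD over 10 arrays was 0.311, against 0.168 for ordinary probe sets. The number of arrays limits the precision. Single values and correlations had exact two-sided permutation tests (scipy 1.17.1); the smallest p for 5 against 5 arrays is 0.00794. An array stood apart if its lymphocyte value exceeded the median by over 0.5. The genes, lists and tests were chosen with earlier results of these data known. In each pathway list up to 4 genes past the threshold, or otherwise the 2 with the smallest p, were named, as were the 8 and 5 genes most like the 10 genes and the C1q chains. Other genes were named after their values were seen. Alternatives covered normalization, filters, moderation, weights, a replicate block, left-out arrays and a covariate.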

Additional observations from a re-analysis of the deposited data

Results flagged for a closer look

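Of 68 groups of 5 arrays, 14 had 1 array far from the other 4 by Dixon's test (gap over range above the 95% critical value). Chance gives about 1 in 20 for a single group, but these groups share arrays, so the count is not set against it. B and T cell genes had served to set knockout 5 and wild type 3 apart, so their flags there add nothing new. Among the 10 genes only Cd14 did so, with 7.31 in knockout 2. The others were mean deviations of marker or pathway lists (log2). Knockout 5 stood apart for B cell genes (1.54), T cell genes (0.67), pan-leukocyte genes (0.982), lymph node stroma (1.39), the 1 dendritic cell gene (1.16), the 1 natural killer cell gene (0.369), toll-like receptor genes (0.297) and skeletal muscle genes (−0.076). Wild type 3 stood apart for B cell genes (1.44), T cell genes (0.782), pan-leukocyte genes (1.11), neutrophil genes (1.09) and the dendritic cell gene (1.17).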

How the results depend on the processing

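None of the 14 probe sets passed under any of the alternatives, with a smallest limma adjusted p of 0.886 over them. Signs were the same as reported in 216 of 270 values for the 13 ordinary probe sets, and the cause of the other 54 was not tested. The 216 include settings that cannot change a difference: other variance settings in limma, the filters, the replicate block and one probe set per gene. The count is therefore no measure of how stable the signs are. Numbers in brackets give the order of a gene's probe sets by mean. With array weights the differences became Csf1r (1) −0.011, C1qb (1) −0.0088. Without the arrays with lymphocyte genes they became Cd68 0.013, Csf1r (2) 0.051, C1qb (2) 0.055, C1qb (3) 0.077, C1qc 0.036, Tyrobp 0.0044, Fcer1g 0.079. Without these and the 2 arrays high in epidermis genes, an alternative chosen after seeing the data, they became Cd68 0.14, Csf1r (2) 0.11, C1qa 0.20, C1qb (2) 0.26, C1qb (3) 0.24, C1qc 0.14, Tyrobp 0.089, Fcer1g 0.16. Leaving out 1 array at a time gave Cd68 −0.12 to 0.092, Csf1r (1) −0.071 to 0.19, Csf1r (2) −0.081 to 0.095, Mrc1 −0.025 to 0.17, C1qa −0.19 to 0.11, C1qb (1) −0.10 to 0.22, C1qb (2) −0.16 to 0.15, C1qb (3) −0.14 to 0.17, C1qc −0.17 to 0.13, Tyrobp −0.18 to 0.12, Fcer1g −0.088 to 0.14. The lowest value came without wild type 1, except for Tyrobp, where it came without knockout 5, and the highest without wild type 3.

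Of all 45037 probe sets 86 passed. The count was 43 after quantile normalization, 143 among probe sets with an SD above 0.01, 5 with one probe set per gene, 16 without the arrays with lymphocyte genes, 0 without these and the epidermis arrays, and 31 to 57 with 1 array left out. A replicate block in the fit left 5. Same-numbered arrays had correlations of −0.400 to 0.322, which do not settle whether the numbers pair the samples. With the block the SE was smaller for every ordinary macrophage probe set except Cd14. It went from 0.25 to 0.099 for C1qa and from 0.108 to 0.116 for Cd14. Relations to lymphocyte genes that passed were 0 with B or T cell genes alone. Most probe sets hardly varied, and signal over background could not be assessed.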

Other observations

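Of the activation genes that handle haem and iron, Hmox1 had r = 0.63 with the mean of the 10 genes over the 8 arrays without lymphocyte genes, and Slc40a1 did not follow it. Slc40a1, the iron exporter ferroportin, read 10.14, 9.74, 9.78, 9.63 and 9.71 in knockouts 1 to 5 and 9.62, 10.05, 9.60, 9.855 and 9.84 in wild types 1 to 5, a difference of 0.0033 with r = −0.092 over the same 8 arrays. Ccl8, a chemokine that attracts monocytes, read 8.87 in knockout 5 and 8.92 in wild type 3. In the other arrays it read 6.99 to 7.37 in knockouts and 6.43 to 6.82 in wild types, so that those 4 and 4 arrays did not overlap. Over all 5 against 5 arrays its difference was 0.43 (limma adjusted p = 0.974). Slc40a1 and Ccl8 were named after their values were seen, and the separation among 8 arrays was not tested. The share of all probe sets without overlap in those 8 arrays was not counted, so the separation of Ccl8 is a description only.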
